A study of Mus musculus with 4 samples.

Results

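The 30 genes described here encode the subunits of the brain's glutamate receptors and the auxiliary proteins of its AMPA receptors, out of 32285 genes in the count matrices. They were chosen by symbol, and each symbol was found once. They comprise 4 AMPA receptor subunits (Gria1 to Gria4), 6 NMDA receptor subunits (Grin1, Grin2a to Grin2d and Grin3a), 5 kainate receptor subunits (Grik1 to Grik5), 1 delta receptor subunit (Grid1), 6 metabotropic receptors (Grm2, Grm3, Grm4, Grm5, Grm7 and Grm8), 6 transmembrane AMPA receptor regulatory proteins or TARPs (Cacng2, Cacng3, Cacng4, Cacng5, Cacng7 and Cacng8) and 2 cornichons (Cnih2 and Cnih3). Each had at least 1 UMI in each of the 4 sections.

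Glutamate is the main excitatory transmitter of the forebrain. AMPA receptors carry most of the fast synaptic current, NMDA receptors admit calcium when binding of glutamate coincides with depolarization and thereby start long-term synaptic plasticity, kainate receptors tune release and excitability, and metabotropic receptors act through G proteins. TARPs and cornichons bind AMPA receptors, help to bring them to the cell surface and slow their gating. Which subunit a neuron uses sets the calcium permeability, kinetics and anchoring of the receptor, and plasticity of hippocampal synapses through these receptors is a widely studied basis of memory.

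The samples were 4 coronal brain sections of 10 µm through the dorsal hippocampus, 1 per mouse, assayed by spatial transcriptomics (10x Visium), in which each spot of the slide captures polyadenylated RNA from a small area that can hold several cells. All mice were male ArcCreERT2::eYFPflx animals of 3 to 4 months on a C57BL/6 background, in which a tamoxifen-inducible Cre under the Arc promoter switches on eYFP in cells that express the activity-regulated gene Arc, and all received 4-hydroxytamoxifen, under isoflurane, before a retention test with the shock off, 3 days before the tissue was taken. The 2 trained mice had gone through 4 active place avoidance trials of 30 min each, in which a sector of a rotating arena gave a foot shock. The 2 untrained mice had the same sessions without shock. Each section therefore represents 1 mouse, and eYFP-tagged and untagged cells of a spot were measured together.

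The sections held 2359 to 3055 spots over tissue, with 3560294 to 10330015 UMIs (unique transcript molecules) in all and medians of 1048 to 2493 UMIs per spot. The receptor genes took 9071 to 22958 of these UMIs, or 0.222% to 0.255% of a section. Trained 2 stood apart from the other sections, with the greatest depth and 6.83% mitochondrial UMIs against 11.6% to 12.2%, and untrained 1 was the shallowest. The tissue is labelled hippocampus, but the sections also covered cortex, thalamus, hypothalamus and other structures. Spots were assigned to 14 regions by region marker genes that include no receptor gene, 13 of which had enough spots to be tested (ependyma did not), and 499 to 584 spots per section were left unassigned. Regions are called here after their marker lists, so "striatal" means spots led by markers of striatal projection neurons. CA3 had the fewest spots, 20 in untrained 1. The summed markers of a region were usually highest in its own spots, but the margin over the next region was as small as 1.28-fold for CA3 (trained 2), 1.33-fold for layer 6 cortex (trained 1) and 1.17-fold for the meninges (untrained 2). In trained 1 the meningeal markers were lower in the spots called meninges than in the choroid plexus (0.776-fold), so the name is not borne out there.

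Levels are UMIs per 1000000 UMIs (CPM) in the region and section, and values of a gene are always given in the order trained 1, trained 2, untrained 1 and untrained 2. A count of 3 UMIs, the floor below which a level is not resolved, equalled 1.44 to 97.0 CPM depending on the region and section, and floors and intervals cover counting error only. Floors were highest in untrained 1, at 73.7 CPM in CA3, 97.0 in the medial habenula and 68.5 in the meninges. Orders of regions given below are of the values as measured, and an order against a section under its floor is not resolved. Since capture of each transcript's 3′ end can differ between genes, levels were compared between regions or groups for the same gene and not between genes. A lower level in a spot can come from fewer cells of a type or from less RNA per cell, and these cannot be told apart.

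The genes were first compared across the brain, each region against the mean of the other 12 on the log2 scale within sections (edgeR's quasi-likelihood test, adjusted over all genes tested by Benjamini-Hochberg). A gene is called when the adjusted p is under 0.05, and changes are log2 values ± SE. Of the 30 genes, 26 passed the filter on low counts, and Grik1, Grm3, Grm8 and Cacng8 did not. Summed over the 13 regions, 142 of 338 tests of these genes were called, 83 higher and 59 lower, beside 17.6% of the tests of all genes (10.3% higher and 7.32% lower). Because the test has more power for genes with more UMIs, this share is given as a description of the list and not as a property particular to it. The largest changes of each region were named, 58 in all, and each was recomputed under 11 to 12 alternative settings (another tool, filter, block or region assignment, thinned sums, or a section left out).

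In the hippocampal layers, the genes called numbered 11 in DG (9 higher and 2 lower, beside 10.5% and 7.43% of all genes, 17.9% in all), 12 in CA1 (8 higher and 4 lower, beside 8.96% and 4.5% of all genes, 13.5% in all) and 11 in CA3 (9 higher and 2 lower, beside 8.14% and 4.78% of all genes, 12.9% in all). Cortex gave 15 in upper-layer cortex (12 higher and 3 lower, beside 11.8% and 6.7% of all genes, 18.5% in all), 11 in layer 5 cortex (6 higher and 5 lower, beside 9.87% and 5.91% of all genes, 15.8% in all) and 7 in layer 6 cortex (5 higher and 2 lower, beside 9.24% and 4.36% of all genes, 13.6% in all). The thalamus had most, with 20 (12 higher and 8 lower, beside 17.8% and 16.7% of all genes, 34.6% in all). Further ventral or medial, the counts were 12 in the medial habenula (4 higher and 8 lower, beside 5.98% and 7.03% of all genes, 13% in all), 12 in the hypothalamus (4 higher and 8 lower, beside 14.6% and 13.9% of all genes, 28.6% in all) and 12 in the striatal spots (10 higher and 2 lower, beside 10.4% and 7.03% of all genes, 17.4% in all). In white matter and at the brain's linings the counts were 14 in white matter (2 higher and 12 lower, beside 15.4% and 11.7% of all genes, 27.1% in all), 3 in the choroid plexus (0 higher and 3 lower, beside 8.71% and 4.81% of all genes, 13.5% in all) and 2 in the meninges (2 higher and 0 lower, beside 2.52% and 0.22% of all genes, 2.74% in all). Under the alternative settings these counts ranged from 7 to 11 in DG, 10 to 13 in CA1, 3 to 12 in CA3, 11 to 15 in upper-layer cortex, 3 to 14 in layer 5 cortex, 5 to 8 in layer 6 cortex, 11 to 24 in the thalamus, 3 to 13 in the medial habenula, 4 to 15 in the hypothalamus, 4 to 15 in the striatal spots, 7 to 14 in white matter, 1 to 6 in the choroid plexus and 0 to 2 in the meninges. Sums thinned to the smallest total gave the lowest count, ties included, in 10 of the 13. Only Grid1, the delta receptor subunit that bridges synapses through cerebellins, was tested and called in 0 regions, its mean ranging from 4.95 ± 9.89 CPM (SD, n = 4) in the choroid plexus to 37.5 ± 10.9 CPM in CA3.

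**Figure D1:**
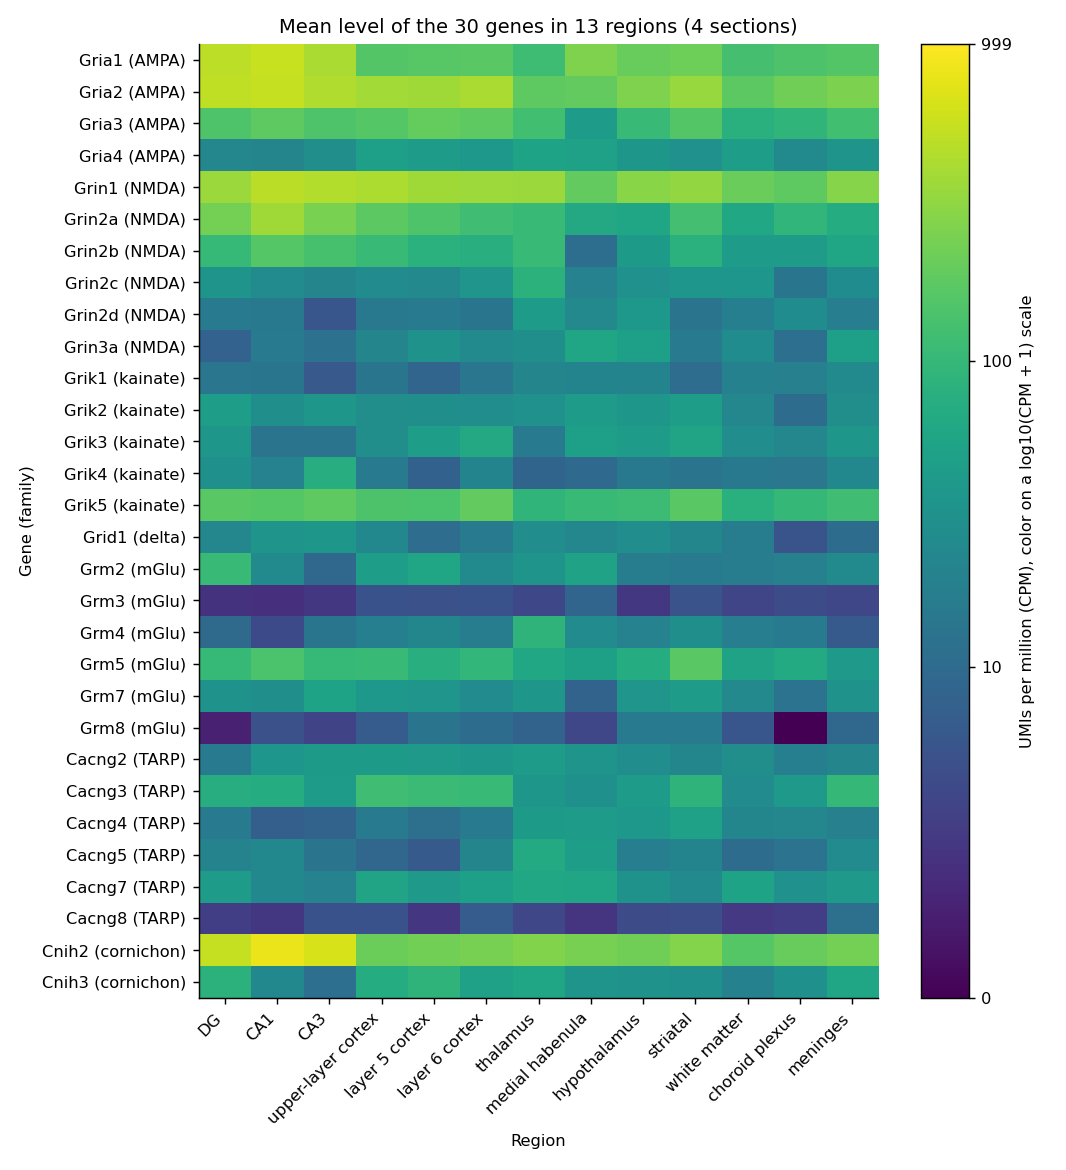
Mean level of each of the 30 genes (rows, grouped by family) in each of the 13 regions (columns), in CPM over 4 sections, colored on a log10(CPM + 1) scale; rows are to be read across, since capture differs between genes. Gria1, Grin2a and Cnih2 were highest in CA1, Grm2 in DG, Grik4 in CA3, and Grin2c, Grm4 and Cacng5 in the thalamus.

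Among AMPA receptor subunits, Gria1 had the largest changes in the hippocampal layers. It encodes GluA1, whose trafficking into synapses accompanies long-term potentiation. Gria1 stood at 541, 499, 561 and 631 CPM in CA1, a log2 change of 1.51 ± 0.10 (adjusted p = 1.62e-24). In DG it measured 589, 278, 597 and 524 CPM, a change of 1.24 ± 0.10 (adjusted p = 1.62e-18), trained 2 being far below the other sections. The summed DG markers were also lowest in the DG spots of trained 2, 572 CPM against 777 to 1121 CPM, and their part in the value was not tested. In 11 of the 12 other regions every section was below every CA1 section, and only DG overlapped CA1. The thalamus was lowest, at 128, 92.5, 113 and 126 CPM (-0.99 ± 0.10, adjusted p = 7.59e-15). Upper-layer cortex held 117, 148, 226 and 140.1 CPM (-0.55 ± 0.11, adjusted p = 4.46e-05). Layer 6 cortex was alike, at 179, 133, 182 and 189.6 CPM (-0.43 ± 0.11, adjusted p = 0.00413). Both cortical regions were thus below CA1 and DG in all 4 sections. The choroid plexus, an epithelium, had 146, 129, 209.9 and 88.0 CPM (-0.58 ± 0.21, adjusted p = 0.0461).

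Gria2, whose product GluA2 keeps most AMPA receptors impermeable to calcium, was called higher in 6 regions and lower in 4, from 542 ± 52.5 CPM (SD, n = 4) in CA1 to 176 ± 37.9 CPM in white matter. Gria3 was highest by mean in layer 5 cortex, followed by CA1. It encodes GluA3, which pairs with GluA2, and it was called higher in 5 regions and lower in 3. It measured 169, 213, 193 and 142 CPM in layer 6 cortex (0.57 ± 0.10, adjusted p = 1.5e-05), beside means of 197 ± 27.8 CPM in layer 5 cortex and 179 ± 23.1 CPM in CA1. The medial habenula had the lowest mean, 43.2 ± 12.7 CPM. Gria4 encodes GluA4, a subunit with fast gating found in interneurons and thalamic relay neurons. It was called higher in upper-layer cortex, the thalamus and white matter and lower in none, with 44.4, 56.1, 37.8 and 44.1 CPM in white matter (0.48 ± 0.18, adjusted p = 0.0365). The 4 white matter sections overlapped those of the thalamus, which held 39.1, 78.1, 41.4 and 57.3 CPM. White matter spots also had the highest sums of interneuron markers, 2041 to 3824 CPM, and the part of these cells in the value was not tested. Under every alternative setting run, Gria1 in CA1, Gria1 in DG, Gria1 in the thalamus and Gria3 in layer 6 cortex stayed past the threshold, whereas the call was lost for Gria1 in upper-layer cortex in 1 of 12, Gria1 in layer 6 cortex in 3 of 12, Gria1 in the choroid plexus in 6 of 11 and Gria4 in white matter in 7 of 11.

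NMDA receptors are built on GluN1, the product of Grin1. This gene was called higher in CA1, CA3, upper-layer cortex and layer 5 cortex and lower in the medial habenula, white matter and the choroid plexus. Its mean ran from 181 ± 85.6 CPM in the choroid plexus to 487 ± 66.4 CPM in CA1. The sections of the choroid plexus gave 86.2, 237, 267 and 132 CPM (-0.91 ± 0.17, adjusted p = 2.05e-05), untrained 1 being highest there. The partner subunits, which set the speed and the magnesium block of the receptor, differed in where they were highest. Grin2a encodes GluN2A, the fast subunit of mature synapses, and CA1 held 315, 375, 404 and 387 CPM of it (1.69 ± 0.11, adjusted p = 1.51e-24). In CA3 it reached 236, 243, 221 and 292 CPM (1.06 ± 0.16, adjusted p = 6.8e-08). Each of the 12 other regions lay below CA1 in each section and without overlap. The hypothalamus was lowest by mean, at 53.4, 53.0, 84.2 and 46.7 CPM (-1.27 ± 0.12, adjusted p = 3.09e-15).

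Grin2b encodes GluN2B, the slower subunit with a long cytoplasmic tail that binds CaMKII. It too had its highest mean in CA1, 159 ± 11.7 CPM, and was called higher in 5 regions and lower in 3. Its lowest levels were in the medial habenula, at 16.0, 6.79, 0 and 22.0 CPM from 3, 1, 0 and 3 UMIs (-2.55 ± 0.39, adjusted p = 2.37e-07). A count of 0 in untrained 1 allowed up to 97.0 CPM there, so the low level rests on the other 3 sections. Grin2c, the GluN2C gene of thalamic neurons and astrocytes, was called in 1 region. The thalamus gave 76.1, 113, 69.8 and 73.9 CPM (1.55 ± 0.14, adjusted p = 1.35e-17), and no section of another region reached these values. Grin2d encodes GluN2D, a slow subunit weakly blocked by magnesium, and was called higher in the thalamus and the hypothalamus. Hypothalamic Grin2d measured 39.7, 37.6, 44.9 and 34.0 CPM (1.11 ± 0.19, adjusted p = 5.69e-07), overlapping the thalamic range of 37.4 to 50.1 CPM.

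Grin3a encodes GluN3A, which lowers calcium permeability and can form receptors gated by glycine. The medial habenula had 69.2, 47.5, 64.7 and 51.3 CPM (1.25 ± 0.35, adjusted p = 0.00655). The hypothalamus had 62.4, 36.2, 61.8 and 34.0 CPM (1.02 ± 0.18, adjusted p = 1.55e-06). In the meninges it stood at 43.9, 53.3, 45.6 and 49.6 CPM from 6, 9, 2 and 8 UMIs (1.28 ± 0.37, adjusted p = 0.036). The neuronal gene Camk2a was also called higher in the meningeal spots, and the part of adjoining cortex in this value was not tested. Without trained 1 the change was 1.41 ± 0.42, adjusted p = 0.0561, and leaving out any other section gave an adjusted p of 0.0604 to 0.251, so the call was lost each time. DG was the region called lower, at 0, 10.3, 0 and 21.1 CPM from 0, 3, 0 and 6 UMIs (-1.49 ± 0.45, adjusted p = 0.0108), which is at or under the counting floor in most sections. Under every alternative setting run, Grin2a in CA1, Grin2a in CA3, Grin2a in the hypothalamus, Grin2c in the thalamus, Grin2d in the hypothalamus, Grin3a in the hypothalamus and Grin1 in the choroid plexus stayed past the threshold, whereas the call was lost for Grin2b in the medial habenula in 1 of 12, Grin3a in DG in 3 of 12, Grin3a in the medial habenula in 2 of 12 and Grin3a in the meninges in 8 of 11.

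Subunit use was also described without scaling between libraries, as the share of one subunit among the UMIs of its family in a region (a share of captured UMIs, not of protein). Gria1 made up 42.9% ± 4.14 (SD, n = 4) of Gria1 to Gria4 UMIs in CA1, 41.1% ± 6.25 in DG and 40.4% ± 5.68 in CA3, against 20.7% ± 2.96 in upper-layer cortex. The medial habenula had the highest mean share, 46.5% ± 12.9, but its sections spread from 33.3% to 64.0%. Gria4 went from 1.69% ± 1.04 in CA1 to 11.6% ± 4.33 in the thalamus. Among Grin2a to Grin2d UMIs, Grin2a had 64.6% ± 3.04 in CA1 and 31.0% ± 3.04 in the thalamus, where Grin2c held 25.0% ± 6.34, beside 4.78% ± 2.25 in CA1. Grin2d had 22.8% ± 1.68 in the hypothalamus. The thalamus thus divided its GluN2 UMIs more evenly than CA1, with Grin2b at 30.5% ± 3.49 and Grin2d at 13.4% ± 2.74.

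**Figure D2:**
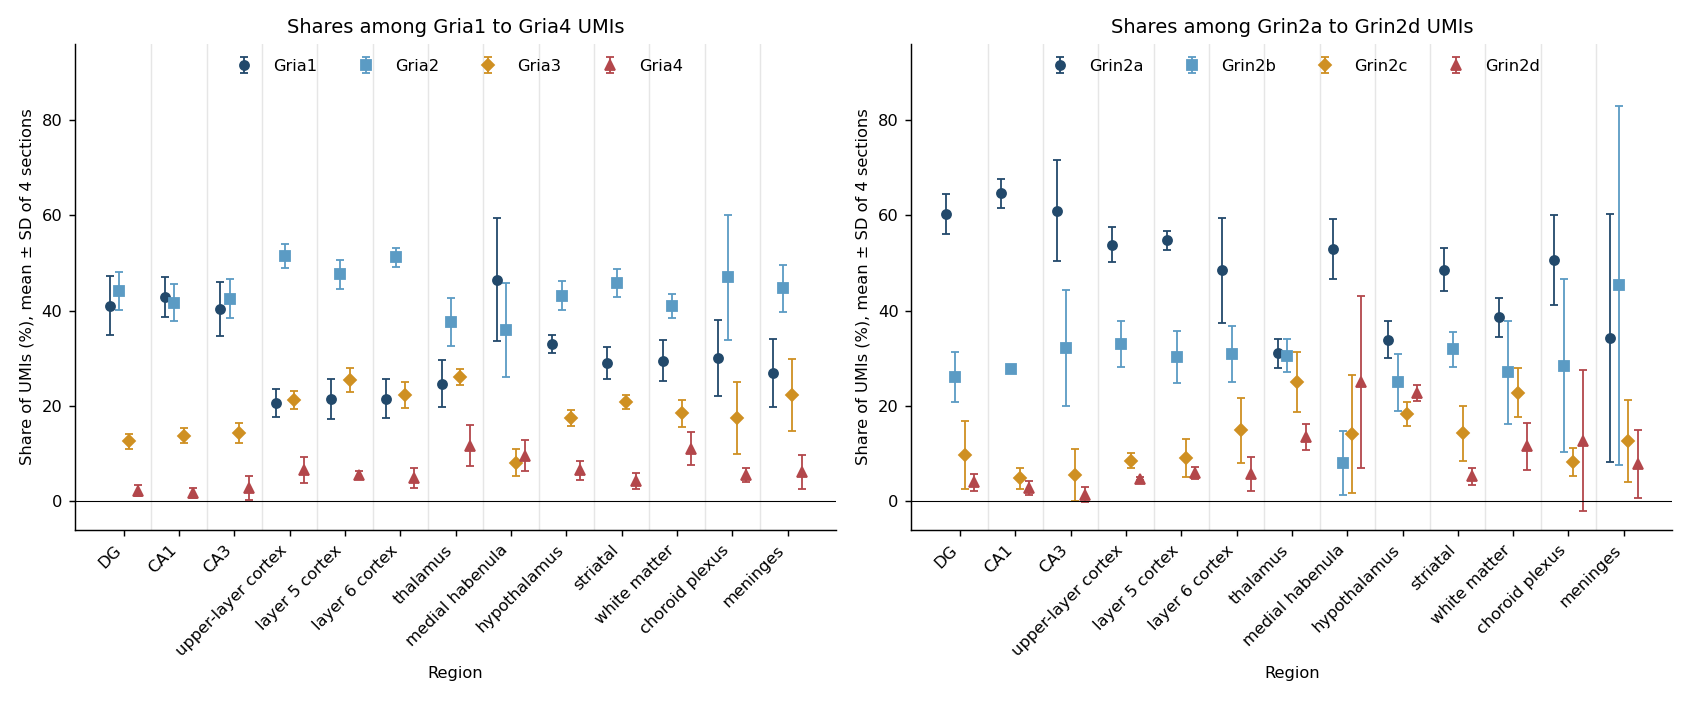
Share of each subunit among the UMIs of its family in each region, in percent; points are means and bars SDs of 4 sections, left for Gria1 to Gria4 and right for Grin2a to Grin2d. The Gria1 share is 41.1% in DG and 42.9% in CA1 and drops to 20.7% in upper-layer cortex, and the Grin2c share is highest in the thalamus; the wide bars of the meninges, choroid plexus and medial habenula go with low counts.

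Among kainate receptor subunits, Grik4 had its highest mean in CA3 and Grik3 in layer 6 cortex. Grik4 encodes GluK4, a high-affinity subunit known from mossy fiber synapses, where granule cells contact CA3 pyramidal cells. CA3 had 99.2, 68.8, 24.6 and 97.3 CPM from 16, 15, 1 and 12 UMIs (2.26 ± 0.32, adjusted p = 9.29e-09). Untrained 1, with 1 UMI, was the low section, and the other 3 were above every section of the other 12 regions. Layer 5 cortex had the lowest mean, 7.55 ± 5.21 CPM, and the thalamus was called lower at 9.01, 7.19, 8.72 and 7.65 CPM (-1.32 ± 0.28, adjusted p = 5.75e-05). In CA3, Grik4 took 22.8% ± 8.59 of the Grik1 to Grik5 UMIs. Grik3 encodes GluK3 and stood in layer 6 cortex at 43.5, 87.7, 70.6 and 55.8 CPM (1.15 ± 0.18, adjusted p = 2.45e-07). The striatal spots followed with a mean of 55.1 ± 4.11 CPM, and layer 6 cortex was above them in only 2 of 4 sections. Of the 12 other regions, 5 lay wholly below layer 6 cortex. CA3 held 12.4, 0, 24.6 and 16.2 CPM of Grik3 from 2, 0, 1 and 2 UMIs (-1.87 ± 0.52, adjusted p = 0.00632). All 4 CA3 values lie under their floors, that of untrained 1 being 73.7 CPM. Grik2 encodes GluK2, a subunit that can form channels on its own, and was called higher in DG (0.73 ± 0.25) and the striatal spots (0.72 ± 0.18). Grik5, whose GluK5 product needs a partner to form channels, was called higher in 4 regions and lower in 3, with means from 79.4 ± 10.3 to 188 ± 24.3 CPM. Grik1 was not tested and ranged over regions from 5.87 ± 4.10 to 26.6 ± 29.2 CPM by mean. Under every alternative setting run, Grik3 in layer 6 cortex and Grik4 in CA3 stayed past the threshold, whereas the call was lost for Grik3 in CA3 in 3 of 12 and Grik4 in the thalamus in 1 of 11.

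Among metabotropic receptors, Grm2, Grm4 and Grm5 each had their own region of highest level. Grm2 encodes mGlu2, a presynaptic brake on release that is known from dentate granule cells and their mossy fibers. DG held 120.1, 85.7, 108 and 119.7 CPM (2.08 ± 0.21, adjusted p = 2.36e-14), and every section of the other 12 regions was lower. Layer 5 cortex came next with 68.4, 45.2, 78.9 and 42.7 CPM (0.99 ± 0.20, adjusted p = 5.28e-05). Upper-layer cortex had 58.5, 61.0, 40.6 and 25.9 CPM (0.72 ± 0.20, adjusted p = 0.00429). The hypothalamus and the striatal spots were called lower. Hypothalamic Grm2 was 17.0, 12.7, 19.6 and 19.8 CPM (-0.83 ± 0.23, adjusted p = 0.00277). Striatal Grm2 was 15.6, 10.3, 23.7 and 14.4 CPM (-0.97 ± 0.28, adjusted p = 0.00637). Among the UMIs of the group II and III receptors (Grm2, Grm3, Grm4, Grm7 and Grm8), Grm2 took 71.0% ± 10.9 in DG.

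Grm4 was highest in the thalamus. It encodes mGlu4, a presynaptic receptor that lowers release. The thalamus had 105, 87.2, 76.3 and 85.4 CPM (2.61 ± 0.14, adjusted p = 2.14e-32), above every section elsewhere, and 51.1% ± 3.07 of the group II and III UMIs. The striatal spots had 37.5, 29.98, 31.6 and 21.6 CPM (1.02 ± 0.22, adjusted p = 0.000224). CA1 had 3.98, 0, 6.84 and 4.07 CPM from 1, 0, 1 and 1 UMIs (-2.51 ± 0.58, adjusted p = 0.000664). The low CA1 values lie at or under the counting floor. Grm5 encodes mGlu5, the postsynaptic receptor coupled to phospholipase C and to Homer scaffolds. It was highest in the striatal spots, at 163, 175, 174 and 163 CPM (1.25 ± 0.11, adjusted p = 3.57e-17), with only CA1 (139 ± 17.3 CPM) overlapping by 1 section. Grm7, the gene of mGlu7 at presynaptic active zones, was called higher in CA3, the thalamus and the striatal spots, and lower in the medial habenula at 10.6, 6.79, 0 and 14.7 CPM from 2, 1, 0 and 2 UMIs (-1.71 ± 0.54, adjusted p = 0.0203). In CA3 it held 66.1% ± 3.99 of the group II and III UMIs. Grm3 and Grm8 were not tested, with means of at most 8.53 and 16.9 CPM in any region. Under every alternative setting run, Grm2 in DG, Grm4 in the thalamus and Grm5 in the striatal spots stayed past the threshold, whereas the call was lost for Grm2 in layer 5 cortex in 1 of 12, Grm2 in upper-layer cortex in 1 of 12, Grm2 in the hypothalamus in 4 of 12, Grm2 in the striatal spots in 3 of 12, Grm4 in the striatal spots in 1 of 12, Grm4 in CA1 in 1 of 12 and Grm7 in the medial habenula in 5 of 11.

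Of the TARP genes, Cacng3 was called higher in the cortical regions and Cacng4 and Cacng5 in subcortical ones. Cacng3 encodes TARP gamma-3. Upper-layer cortex had 131, 82.7, 132 and 133 CPM (1.05 ± 0.13, adjusted p = 8.72e-11). Layer 5 cortex had 118, 103, 118 and 105 CPM (0.92 ± 0.14, adjusted p = 7.04e-08). Layer 6 cortex had 131, 105, 111 and 86.4 CPM (0.88 ± 0.14, adjusted p = 8.06e-07). All cortical sections were above all thalamic ones, whose range was 22.9 to 50.2 CPM. Meningeal spots, which border upper cortex, had 80.5, 107, 114 and 93.0 CPM (0.88 ± 0.25, adjusted p = 0.028). That call held without trained 1 (1.06 ± 0.29, adjusted p = 0.0240) and was lost without any of the other sections (adjusted p = 0.0604 to 0.268). White matter was lowest by mean at 37.7, 18.7, 28.4 and 22.0 CPM (-1.27 ± 0.20, adjusted p = 2.14e-07).

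Cacng4, for TARP gamma-4, was highest in the striatal spots at 59.4, 52.7, 39.6 and 52.9 CPM (1.55 ± 0.19, adjusted p = 3.38e-11). In the medial habenula it was 79.8, 20.4, 32.3 and 44.0 CPM (1.24 ± 0.35, adjusted p = 0.00747). The hypothalamus gave 43.1, 34.2, 39.3 and 38.2 CPM (0.96 ± 0.18, adjusted p = 6.02e-06). These 3 regions overlapped one another, and every striatal and hypothalamic section was above those of CA1 and layer 5 cortex. CA1 was at 7.96, 3.03, 13.7 and 4.07 CPM (-1.80 ± 0.48, adjusted p = 0.00434), all under their floors of 11.9, 9.08, 20.5 and 12.2 CPM. Layer 5 cortex was at 8.55, 6.17, 19.7 and 13.2 CPM (-1.21 ± 0.31, adjusted p = 0.00256). Cacng5 encodes TARP gamma-5, which modulates only some AMPA receptor compositions. It peaked in the thalamus at 65.1, 77.7, 56.7 and 66.3 CPM (1.91 ± 0.15, adjusted p = 4.35e-21). The medial habenula followed with 42.6, 27.2, 32.3 and 88.0 CPM (1.32 ± 0.37, adjusted p = 0.00655). There untrained 2 was above the thalamic range, both trained sections were below it, and untrained 1 was under its floor of 97.0 CPM. Cacng5 was lower in upper-layer cortex, at 4.28, 10.9, 15.0 and 4.57 CPM (-1.40 ± 0.33, adjusted p = 0.00074). It was also lower in layer 5 cortex, at 4.28, 10.3, 0 and 9.86 CPM (-1.40 ± 0.33, adjusted p = 0.000869).

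Cacng2, the gene of stargazin, was called higher in upper-layer cortex and the thalamus and lower in DG, where it was 18.2, 6.85, 28.8 and 10.6 CPM from 5, 2, 4 and 3 UMIs (-1.20 ± 0.36, adjusted p = 0.0104). Cacng7 encodes TARP gamma-7, known from cerebellum. White matter had 48.8, 48.6, 85.1 and 34.3 CPM (0.50 ± 0.19, adjusted p = 0.0351) and overlapped 10 of the 12 other regions. The striatal spots had 10.9, 28.9, 31.6 and 33.6 CPM (-0.59 ± 0.22, adjusted p = 0.0473). Cacng8, for TARP gamma-8, the TARP best known from hippocampus, was not tested: CA1 had 0, 0, 0 and 2 UMIs, whole sections 3.51, 3.58, 4.77 and 3.65 CPM and the pooled hippocampal layers 1.45, 2.38, 0 and 7.66 CPM, of which only untrained 2 was above its floor of 4.59 CPM. Under every alternative setting run, Cacng3 in upper-layer cortex, Cacng3 in layer 5 cortex, Cacng3 in layer 6 cortex, Cacng4 in the hypothalamus, Cacng4 in the striatal spots, Cacng5 in upper-layer cortex and Cacng5 in the thalamus stayed past the threshold, whereas the call was lost for Cacng2 in DG in 3 of 11, Cacng3 in the meninges in 8 of 11, Cacng3 in white matter in 1 of 11, Cacng4 in CA1 in 2 of 11, Cacng4 in layer 5 cortex in 2 of 11, Cacng4 in the medial habenula in 1 of 11, Cacng5 in layer 5 cortex in 1 of 11, Cacng5 in the medial habenula in 2 of 11, Cacng7 in white matter in 5 of 11 and Cacng7 in the striatal spots in 10 of 12.

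The cornichons, which leave the endoplasmic reticulum with AMPA receptors and slow their deactivation, differed from each other. Cnih2 was called higher in CA1, CA3 and DG. CA1 had 848, 762, 719 and 924 CPM (1.63 ± 0.08, adjusted p = 7.71e-34). CA3 had 546, 679, 614 and 819 CPM (1.27 ± 0.10, adjusted p = 2.57e-19). DG had 564, 500.2, 532 and 591 CPM (0.97 ± 0.09, adjusted p = 8.05e-17), overlapping CA3. CA1 was above CA3 and DG in all 4 sections, and no section of the other 11 regions reached the CA1 range. In layer 6 cortex it was 254, 232, 253 and 234 CPM (-0.32 ± 0.09, adjusted p = 0.00733). Cnih3 was called higher in DG and cortex and lower in CA3 and white matter. Layer 5 cortex had 98.3, 95.6, 59.2 and 100.3 CPM (1.36 ± 0.16, adjusted p = 2.49e-11). DG had 94.6, 51.4, 108 and 77.4 CPM (1.08 ± 0.22, adjusted p = 6.37e-05). Upper-layer cortex had 65.6, 82.7, 62.0 and 76.2 CPM (0.92 ± 0.17, adjusted p = 6.36e-06). DG and both cortical regions overlapped. CA3 had 24.8, 4.59, 0 and 16.2 CPM from 4, 1, 0 and 2 UMIs (-1.73 ± 0.48, adjusted p = 0.00631). White matter had 22.2, 12.2, 23.6 and 22.0 CPM (-1.15 ± 0.25, adjusted p = 0.000149). Under every alternative setting run, Cnih2 in CA1, Cnih2 in CA3, Cnih3 in DG, Cnih3 in layer 5 cortex and Cnih3 in upper-layer cortex stayed past the threshold, whereas the call was lost for Cnih2 in layer 6 cortex in 4 of 12, Cnih3 in CA3 in 4 of 12 and Cnih3 in white matter in 2 of 11.

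**Figure D3:**
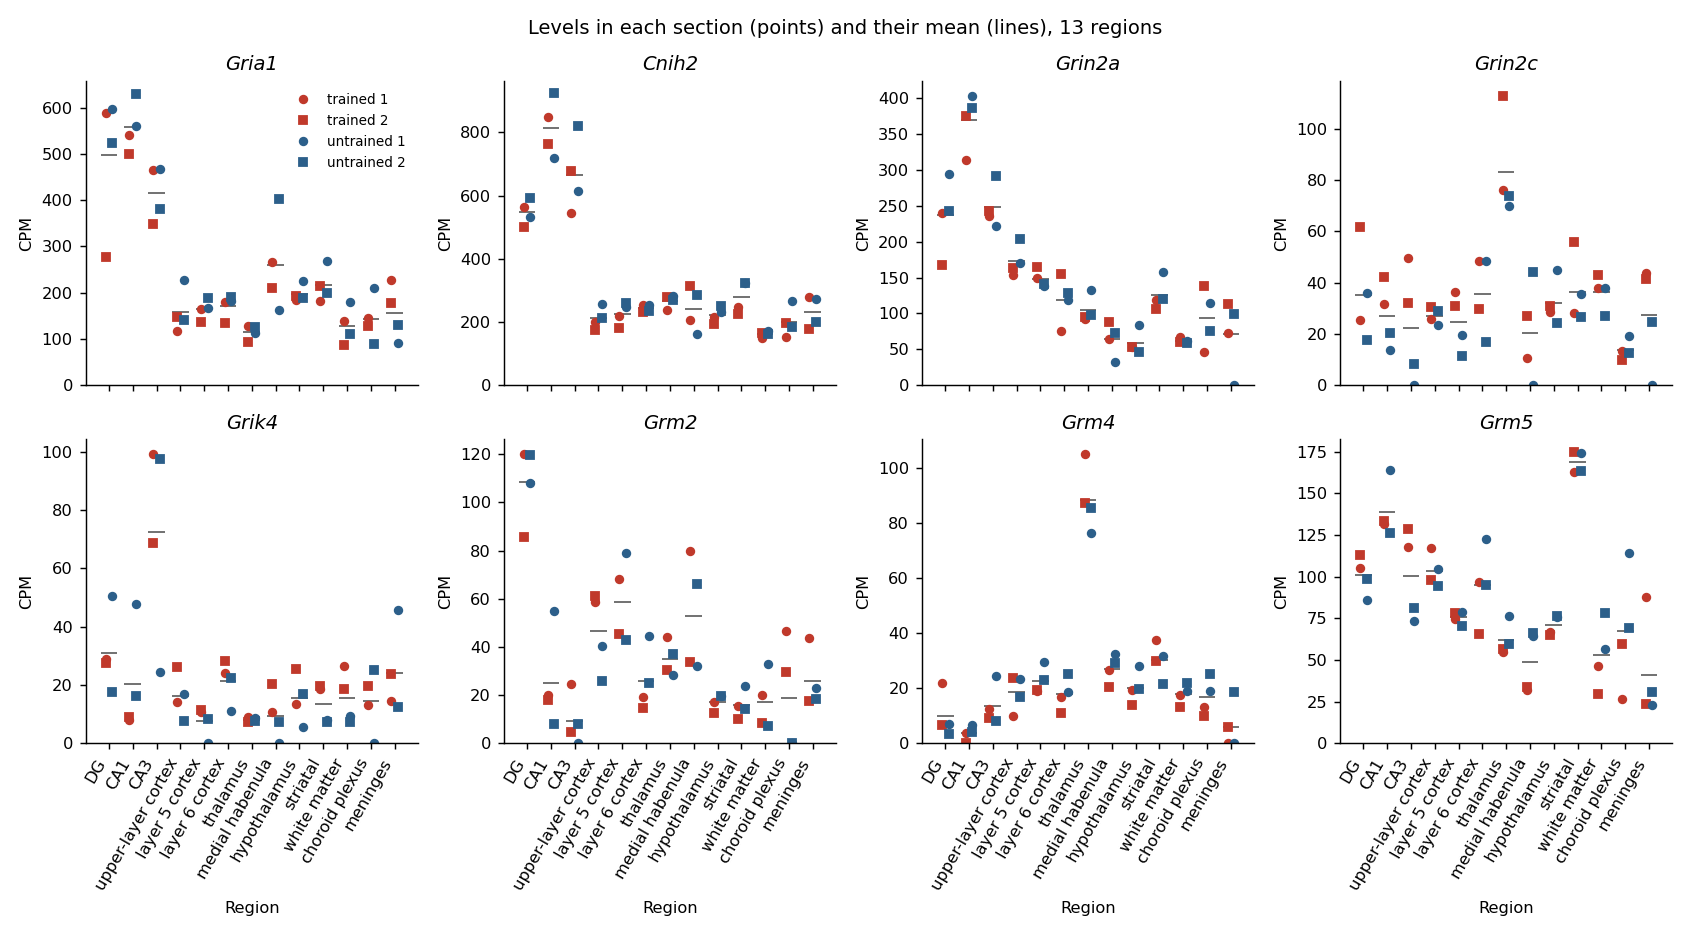
Level of 8 of the genes in each region, in CPM on axes that start at 0; each point is 1 section (red trained, blue untrained, circles for mouse 1 and squares for mouse 2 of a group) and lines are means of 4 sections. Grm2 stands out in DG, Grm4 and Grin2c in the thalamus and Cnih2 in CA1 and CA3, and the 4 thalamic values of Grm4, from 76.3 to 105 CPM, lie above its values in all other regions.

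Other genes of glutamate signaling were counted from a list of 46 genes (4 further receptor subunits, 12 other auxiliary subunits, 24 scaffolds and anchors, and 6 glutamate transporters). Over the regions, 215 of 481 tests were called, 117 higher and 98 lower, beside 17.6% of the tests of all genes (10.3% higher and 7.32% lower). Without smoothing the calls were 126 higher and 47 lower of 494 tests, beside 15216 of 119678 tests of all genes called. With thinned sums they were 81 and 55 of 442, beside 8884 of 71747. Scaffolds and anchors, which hold receptors at the postsynaptic density, gave 12 higher and 0 lower of 21 in CA1, 9 higher and 0 lower of 21 in DG and 11 higher and 1 lower of 21 in upper-layer cortex, where 8.96%, 10.5% and 11.8% of all genes were called higher. Hypothalamus gave 0 higher and 14 lower of 21 and white matter 1 higher and 15 lower of 21, beside 13.9% and 11.7% of all genes called lower. The genes with the smallest p in the hippocampal layers were Nptx1, a pentraxin that clusters AMPA receptors, with a change of 1.81 ± 0.10 in DG and 2.11 ± 0.12 in CA3, Nptxr, its receptor, with 1.77 ± 0.11 in CA3, Camk2b, a subunit of CaMKII, with 0.87 ± 0.08 in CA1 and 1.21 ± 0.07 in DG, and Shisa6, an AMPA receptor auxiliary subunit, with 2.07 ± 0.20 in CA1. In the thalamus, Slc17a6, which loads glutamate into vesicles of subcortical neurons, was at 2.62 ± 0.10. Slc17a6 had the smallest p in the medial habenula too, with 2.15 ± 0.20, where Camk2a changed by -1.67 ± 0.19.

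Elsewhere, Slc17a7, the vesicular transporter of cortical and hippocampal neurons, differed by 0.84 ± 0.09 in layer 5 cortex, 1.01 ± 0.08 in layer 6 cortex, -2.19 ± 0.12 in the hypothalamus and -0.94 ± 0.11 in the striatal spots. Homer1, which ties mGlu5 to the postsynaptic density, was at 0.86 ± 0.13 in layer 5 cortex, and Nptx1 at 1.07 ± 0.10 in layer 6 cortex. Nptxr was 1.01 ± 0.08 in upper-layer cortex, -1.40 ± 0.12 in white matter and -0.93 ± 0.19 in the choroid plexus, where Nsf, which acts in vesicle and receptor cycling, was -0.96 ± 0.13. Camk2a was 0.81 ± 0.08 in upper-layer cortex, -1.20 ± 0.10 in the hypothalamus, -1.25 ± 0.12 in white matter and 0.73 ± 0.13 in the meninges. The kainate receptor auxiliary gene Neto1 was 1.28 ± 0.14 in the striatal spots, and Slc1a2, the astrocytic glutamate transporter, 0.80 ± 0.11 in the meninges. All of these changes were called.

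The second question was whether the receptor genes differed between trained and untrained mice 3 days after the retention test. In each region taken alone, 0 of 219 tests of these genes over 13 regions were called (edgeR's quasi-likelihood test, 2 sections against 2), beside 0.0399% of all tests. At an unadjusted p under 0.05 there were 14, beside 5.67% of all tests, and DESeq2 called 0 as well. The 219 changes had SEs from 0.15 to 0.71 log2 units, so that small changes were not detectable with 2 sections a group. Leaving out trained 1 gave 2 calls in 246 tests, beside 0.819% of all tests, namely Gria1 in DG (-0.85 ± 0.24, adjusted p = 0.0334) and Grin2b in white matter (-1.53 ± 0.41, adjusted p = 0.0294), and leaving out any other section gave 0. Without trained 1 the trained group is trained 2 alone, whose DG markers were the lowest.

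The gene of smallest p in each region was as follows. In the 3 hippocampal layers, Cacng7 in DG was at 25.5, 24.0, 86.3 and 42.2 CPM (-1.17 ± 0.53, adjusted p = 0.994). In CA1, Cacng2 was at 19.9, 33.3, 54.7 and 40.7 CPM (-0.75 ± 0.53, adjusted p = 0.963). The sign of this Cacng2 change turned without smoothing (0.35). In CA3, Grik5 was at 291, 183, 123 and 122 CPM from 47, 40, 5 and 15 UMIs (0.92 ± 0.37, adjusted p = 0.922). Both trained sections were below both untrained ones for Cacng7 and Cacng2 and above them for Grik5. In cortex, Gria1 in upper layers was at 117, 148, 226 and 140.1 CPM (-0.56 ± 0.23, adjusted p = 0.898). In layer 5, Grin2c was at 36.3, 30.8, 19.7 and 11.5 CPM from 17, 30, 2 and 7 UMIs (1.24 ± 0.52, adjusted p = 0.681). In layer 6, Cacng2 was at 26.6, 25.9, 63.2 and 33.5 CPM (-0.92 ± 0.42, adjusted p = 0.841). For Gria1 the groups overlapped, since trained 2 was above untrained 2, while those of Grin2c and Cacng2 did not.

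In the thalamus, Gria2 was at 151, 151, 246 and 166 CPM (-0.48 ± 0.18, adjusted p = 0.677). Hypothalamic Gria3 was at 92.0, 89.2, 140.3 and 101 CPM (-0.43 ± 0.21, adjusted p = 0.909). Striatal Cnih2 was at 247, 224, 324 and 324 CPM (-0.50 ± 0.18, adjusted p = 0.575). In all 3, both trained sections were below both untrained ones. The summed striatal markers of the striatal spots were 3216, 4276, 1998 and 2813 CPM, and their part in the Cnih2 value was not tested. White matter gave the smallest p of any region, for Grin2b at 35.5, 22.4, 52.0 and 66.1 CPM (-1.25 ± 0.37, adjusted p = 0.437), again with the trained sections below. Gria1 in the medial habenula was at 266, 210.5, 162 and 403 CPM (-0.54 ± 0.31, adjusted p = 0.998). Grik5 in the choroid plexus was at 59.7, 98.9, 134 and 101 CPM (-0.57 ± 0.49, adjusted p = 0.999). The habenular change turned to 0.56 without untrained 2 and 0.10 without smoothing. The habenular groups overlapped, and untrained 1 there rested on 5 UMIs. Meningeal Grik5 was at 139, 166, 91.3 and 86.8 CPM (0.61 ± 0.38, adjusted p = 0.817).

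Pooling DG, CA1 and CA3 spots of a section, 0 of 24 genes tested were called, beside 0% of all 8857 genes, and 1 of the 24 had an unadjusted p under 0.05, as did 440 of all genes. DESeq2 called 0 of them. That gene was Grin2c, at 33.5, 46.4, 21.5 and 16.8 CPM from 23, 39, 7 and 11 UMIs (1.12 ± 0.39, adjusted p = 0.921). Both trained sections were above both untrained ones. The sum of 7 astrocyte markers in these layers was 1088, 1585, 1188 and 985 CPM, with a ratio of trained to untrained means of 1.23, and its part in the Grin2c value was not tested. As a share of GluN2 UMIs, hippocampal Grin2c was 7.54 (4.84 to 11.1), 10.5 (7.58 to 14.1), 4.17 (1.69 to 8.40) and 3.61 (1.81 to 6.36) percent (95% exact binomial intervals in parentheses). With 2 sections against 2, an exact permutation test cannot give a two-sided p below 0.333.

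Over whole sections, 0 of 30 genes were called, beside 0.0145% of all genes, and DESeq2 called 0 of these genes. Without trained 1, which leaves trained 2 as the only trained section, 9 were called, 7 lower and 2 (Gria4 and Grin2c) higher, beside 5.96% of all genes, and without any other section 0. An unadjusted p under 0.05 was found for 5, all lower in trained mice, beside 7.96% of all genes. The smallest was that of Cnih3, at 43.8, 47.4, 57.6 and 58.3 CPM (-0.42 ± 0.11, adjusted p = 0.502). Grin2b was at 74.9, 65.4, 96.9 and 86.1 CPM (-0.46 ± 0.13, adjusted p = 0.552), and Grin2a at 117, 116, 146 and 137 CPM (-0.36 ± 0.11, adjusted p = 0.582). In each of these genes both trained sections were below both untrained ones. The others were Cacng7 at 39.7, 39.7, 56.2 and 45.9 CPM and Gria1 at 197, 164, 229.8 and 204 CPM, with the same order. Across the list, trained sections were wholly below untrained ones in 9 of 30 genes, beside 12.7% of the 12353 genes above a minimum count in every section. They were wholly above in 4, beside 28.7%. These 12353 genes were not matched to the list in level. Sections differed in how much of each region they held, with hypothalamus markers summing to 2924 CPM in trained 2 and 828 to 1748 CPM in the others, and the part of tissue composition in these values was not tested.

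Regions were also combined in 1 fit, with region as a term and the section as a random block (limma voom with duplicateCorrelation), to ask for a change shared by regions. Of 26 genes tested, 3 were called, all lower in trained mice, beside 4.42% of all genes called and 2.8% called lower. These were Grin2b, Cnih2 and Gria1. Of the 26 changes, 20 were negative, beside 54.4% of all genes, and their median was -0.10, beside -0.02 over all genes. The fit uses 1 correlation of 0.0560 for all genes between regions of a section and still rests on 2 mice a group, so its p-values measure these 4 sections more than the population of mice. At so low a correlation, the regions of a mouse count as far more than 1 observation. On simulated counts this fit made false calls well above the rate its threshold allows, while the other fits were near or under that rate.

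Grin2b, for GluN2B, averaged 79.4, 65.9, 90.3 and 84.3 CPM over the 13 regions, with a change of -0.42 ± 0.10 (adjusted p = 0.00774). Both trained sections were below both untrained ones, and the trained mean was lower in 10 of 13 regions, with trained sections wholly below in 5 and above in 0. Over all genes of at least 200 UMIs, 13% of gene and region pairs had trained sections wholly below and 21.6% above. The other 3 regions (medial habenula, choroid plexus and meninges) had a higher trained mean and too few UMIs to be fitted alone. Cnih2 averaged 317, 314, 333 and 363 CPM, with a change of -0.25 ± 0.07 (adjusted p = 0.013). Its trained sections were also both lower. The trained mean was lower in 12 of 13 regions, with trained sections wholly below in 4 and above in 0. The change fitted in each region alone was negative in 13 of 13, where 48.1% to 50.4% of all genes of a region were negative. Gria1, for GluA1, averaged 256, 204, 265 and 254 CPM, with a change of -0.31 ± 0.09 (adjusted p = 0.0406). Its trained mean was lower in 12 of 13 regions, with trained sections wholly below in 3 and above in 1, the meninges. Its change fitted in each region alone was negative in 11 of 13. Here the groups overlapped, since trained 1 lay above untrained 2. Next came Cacng7 (-0.38 ± 0.15, adjusted p = 0.155), Grin2a (-0.23 ± 0.10, adjusted p = 0.211) and Grin2c (0.34 ± 0.16, adjusted p = 0.276), none of them called. The Cnih2 change is -0.06 in CA1 and -0.04 in DG when fitted alone, against -0.47 in layer 5 cortex and -0.50 in the striatal spots.

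Grin2b spans positions 135713233 to 136173511 of chromosome 6 on the minus strand of mm10, Cnih2 positions 5092868 to 5098521 of chromosome 19 on the minus strand, and Gria1 positions 57011387 to 57330244 of chromosome 11 on the plus strand; all are annotated as protein-coding. The 3 calls depended on single sections and on how spots were assigned. None was called without trained 2, without untrained 1, with sums thinned to equal totals, without smoothing of the region scores, or with a stricter margin between region lists. Without untrained 2 the only call was Gria2, at -0.32 ± 0.09. Without trained 1 the calls were 5 of 27, with Gria4 and Grin2c higher beside the same 3 lower, while the share called among all genes rose to 12.8%.

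**Figure D4:**
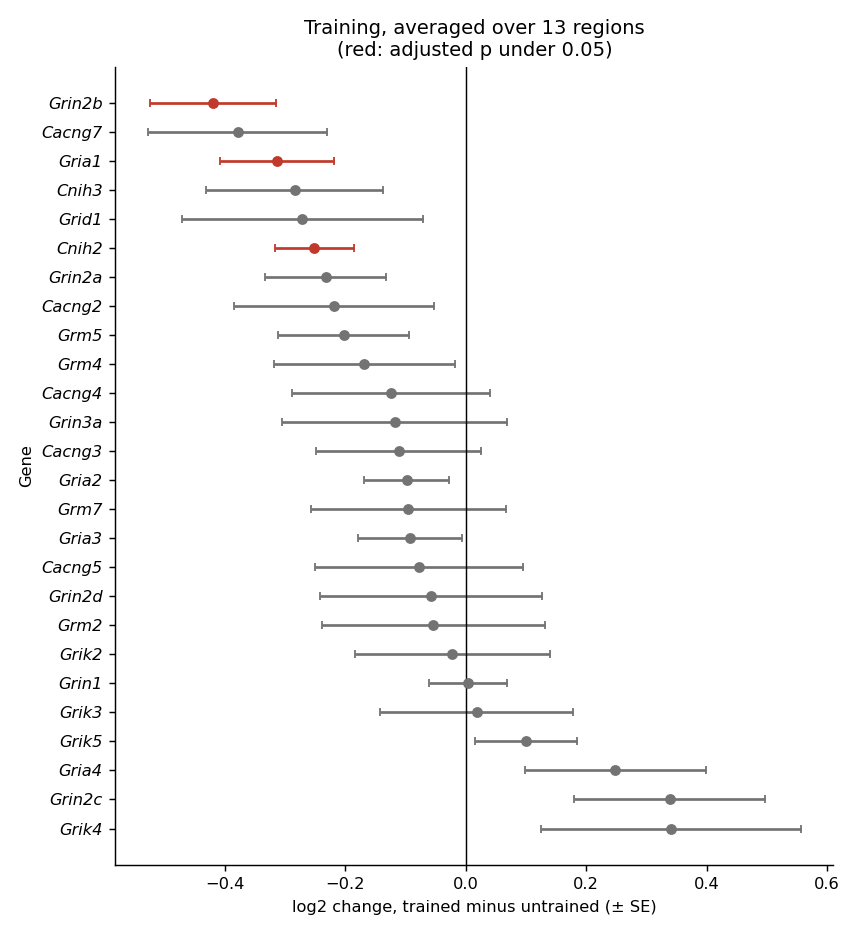
Change with training averaged over 13 regions for the 26 genes tested, as log2 of trained over untrained with bars of ± 1 SE, ordered by size; red marks an adjusted p under 0.05. Grin2b (-0.42), Gria1 (-0.31) and Cnih2 (-0.25) are called, and 20 of the 26 points lie left of 0, beside 54.4% of all genes tested.

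**Figure D5:**
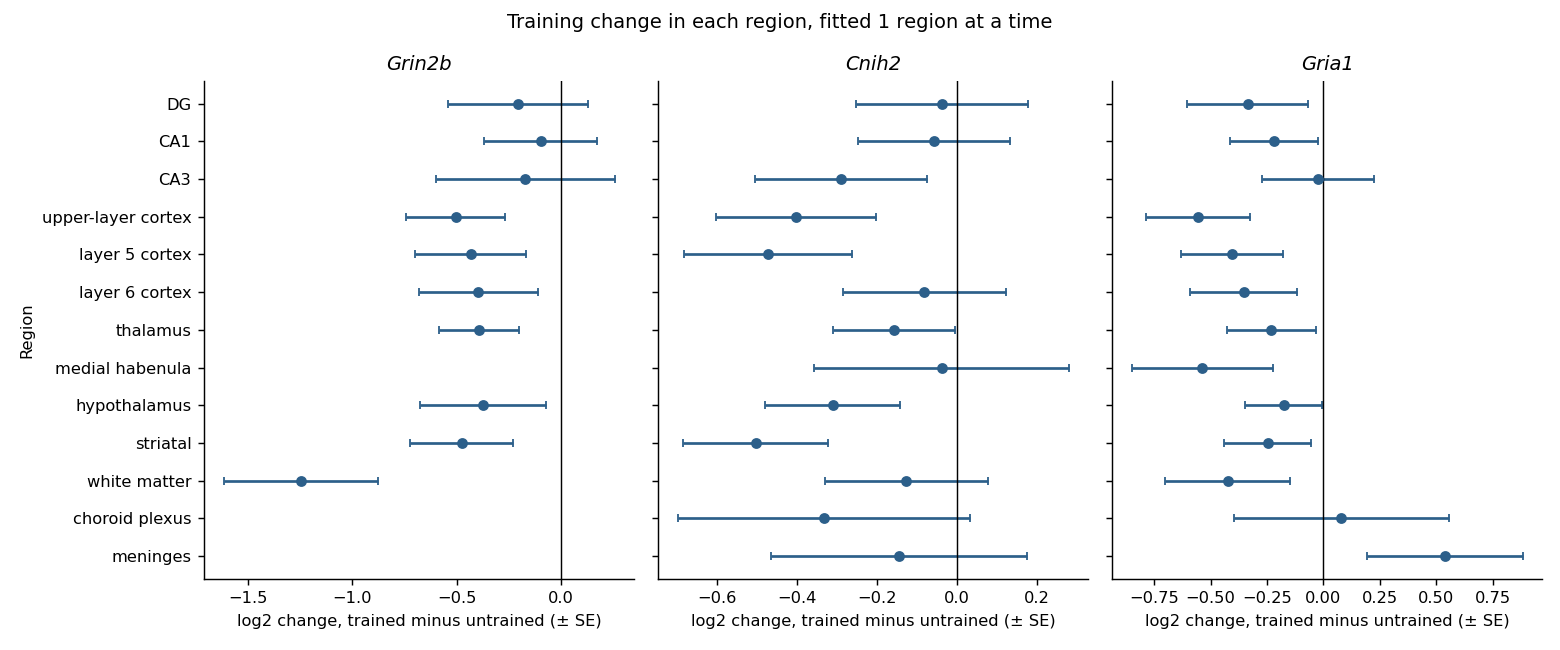
Change with training of Grin2b, Cnih2 and Gria1 in each region fitted alone, as log2 of trained over untrained with bars of ± 1 SE; a missing point means that the gene was under the count filter there. All 10 points of Grin2b and all 13 of Cnih2 lie left of 0, and none of the changes is called in a single region.

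Whether a training change differed between regions was tested as an interaction, the change in a region minus the mean change in the others. None of 338 tests was called, beside 0.00837% of all tests, DESeq2 called 0, and 17 had an unadjusted p under 0.05, beside 4.76% of all tests. So the apparent differences between regions in the plot of training change by region were not resolved with these 4 sections. The smallest p was that of Grm2 in the choroid plexus, with 7, 3, 0 and 0 UMIs (adjusted p = 0.806). There the floor of untrained 1 was 57.2 CPM, and trained 2 was at its floor of 29.7 CPM. No fold between the groups is read from these counts. White matter followed with Grm5 at 46.6, 29.9, 56.7 and 78.3 CPM (-0.93 ± 0.33, adjusted p = 0.645), where both trained sections were lower. In layer 6 cortex it was Grm2, at 19.3, 14.8, 44.6 and 25.1 CPM (-1.61 ± 0.58, adjusted p = 0.816).

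In the hippocampal layers the smallest were Grin2d in DG at 10.9, 6.85, 28.8 and 17.6 CPM from 3, 2, 4 and 5 UMIs (-1.95 ± 0.89, adjusted p = 0.94), Grik4 in CA1 at 7.96, 9.08, 47.9 and 16.3 CPM from 2, 3, 7 and 4 UMIs (-2.19 ± 0.84, adjusted p = 0.95) and Grik5 in CA3 (0.84 ± 0.36, adjusted p = 1), whose levels are given above. The first 2 rest on 2 to 7 UMIs a section. Elsewhere they were Grik3 in upper-layer cortex at 24.2, 50.1, 29.9 and 12.2 CPM (0.92 ± 0.44, adjusted p = 1) and Grin3a in layer 5 cortex at 23.5, 23.6, 49.3 and 34.5 CPM (-0.85 ± 0.49, adjusted p = 1). Gria2 had the smallest p in both the thalamus (-0.41 ± 0.16, adjusted p = 1) and the striatal spots, there at 341, 389.8, 356 and 279 CPM (0.31 ± 0.16, adjusted p = 0.924). Its change was thus negative in the thalamus and positive in the striatal spots relative to the other regions, neither of them called, and the striatal one turned to -0.34 without smoothing. The remaining ones were Grm2 in the hypothalamus at 17.0, 12.7, 19.6 and 19.8 CPM (-1.06 ± 0.55, adjusted p = 1), Grin2c in the medial habenula with 2, 4, 0 and 6 UMIs (-1.65 ± 0.93, adjusted p = 1) and Gria1 in the meninges at 227, 178, 91.3 and 130.2 CPM (0.82 ± 0.39, adjusted p = 0.886).

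Subunit shares were compared between trained and untrained sections in the same way. Of 234 shares (18 subunits in 13 regions), 80 did not overlap between groups, 40 with trained sections above and 40 below (34.2%), and the exact permutation p is 0.333 for any share without overlap. Grin2c was the subunit with most shares above, 8 of 13 regions without overlap, beside 17.1% of all shares, and a higher mean in 11. Over whole sections, its share of GluN2 UMIs was 14.8 (13.2 to 16.5), 20.5 (19.0 to 22.1), 12.5 (10.6 to 14.6) and 11.0 (9.58 to 12.5) percent. In CA1 it was 6.20 (2.72 to 11.9), 7.11 (3.94 to 11.6), 2.30 (0.280 to 8.06) and 3.50 (1.14 to 7.97) percent. The trained sections were above the untrained ones in both, and intervals of the groups overlapped in both. Markers of the thalamus, where Grin2c was highest, averaged 874 CPM over trained whole sections and 693 CPM over untrained ones. Their part in the whole-section share was not tested. The Grin2b share was wholly below in 4 of 13 regions, beside 17.1% of all shares and no more often than those of Grik1 (5) and Grm3 (4). Its share over whole sections was 29.5 (27.4 to 31.7), 25.3 (23.7 to 27.0), 31.9 (29.1 to 34.7) and 31.6 (29.5 to 33.9) percent. Shares of a family add up to a fixed total, so a higher share of one subunit lowers the others, and regions of a section are not independent.

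Among the other genes of glutamate signaling, 6 of 38 were called in the fit over regions, all lower in trained mice: 5 of 22 scaffolds and anchors, 1 of 5 transporters, and 0 of 11 auxiliary and further receptor subunits, beside 4.42% of all genes called and 2.8% called lower. The 6 became 2 without smoothing, where 83 of 11023 genes were called in all. They became 5 to 8 under the other alternatives that kept all sections, where 206 to 4151 genes were called in all. The number rose without trained 1 and fell without any other section. The 2 with the smallest p were Nptxr, at -0.66 ± 0.09 (adjusted p = 1.37e-06), and Camk2a, the alpha subunit of CaMKII, at -0.48 ± 0.09 (adjusted p = 0.000123). The postsynaptic scaffolds Shank1 and Shank2 and the transporter Slc17a7 were called too, at -0.62 ± 0.13, -0.39 ± 0.11 and -0.36 ± 0.08. None of the list was called in any region alone, in the hippocampal layers, in whole sections or in the interaction, but without trained 1 there were 19, 3, 10 and 4 calls in these comparisons, where 0.819%, 1.21%, 5.96% and 0.120% of all tests were called, and under the other alternatives 0 to 8, 0, 0 to 5 and 0 to 1.

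Marker sums of other cells were set beside the groups, with no test. The sum of 8 interneuron markers had a higher trained than untrained mean in 11 of 13 regions, with ratios from 0.812 to 1.58. Myelin markers, 9 in number, were higher in 9 regions, astrocyte markers in 6, and microglia markers in 4. The sum of 7 meningeal markers had a lower trained mean in 13 of 13 regions, with ratios from 0.337 to 0.979. Choroid plexus markers, 7 in number, had a lower trained mean in 11 of 13 regions (median ratio 0.614, from 0.441 to 5.57), and 4 blood markers in 9. The part of these cells in the lower Grin2b, Cnih2 and Gria1 was not tested.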

How the data were processed

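The authors deposited raw UMI counts per gene and spot, 1 matrix for each of the 4 sections, with spots over tissue only. The methods name Space Ranger and the mm10 genome, the file headers carry an older Space Ranger release, and the submitters' processing notes also list Cell Ranger 8, STAR and GRCm39 (mm39), which the spatial methods do not name. Capture is at transcript 3′ ends, so splice and editing variants of a receptor are not distinguished, and no depth scaling had been applied.

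Each spot was scored on marker lists of 14 regions (counts scaled to 10000 per spot, z-scores capped at 5, smoothed in 2 passes over the 6 adjacent spots) and given to the leading list where its score was above 0.3. Patches under 5 spots were dropped, the thalamus was held to its largest patch and the medial habenula to the patch nearest DG, and hippocampal spots had to join the main DG patch in steps of at most 3 spots. These settings were chosen on maps of the markers. The 13 regions with at least 20 spots in every section were tested. Ependyma and unassigned spots were left out of the regions and kept in whole sections. Sections share 1330 spot barcodes, which are positions on the slide and not shared cells.

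Spots of a section are not replicates. UMIs were summed per region and section, and the section was the replicate. Sums were filtered (filterByExpr), scaled by TMM and fitted with edgeR 4.0.16 (glmQLFit, glmQLFTest), regions with the section as a block and training without. Training averaged over regions used voom, duplicateCorrelation and eBayes of limma 3.58.1. P-values are two-sided and adjusted by Benjamini-Hochberg over all genes tested in a contrast, with a threshold of 0.05. With 2 mice a group, they measure the spread of these sections, or of their region sums in the fits over all regions. The intervals of shares are exact binomial (95%). Gene positions are from the GENCODE annotation of mm10.

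All 30 members are accounted for. Values in every section are given for members called with training, for the smallest p of a training comparison where none was called, and for the 3 largest higher and 2 largest lower calls of each region. Alternatives were DESeq2 1.42.0, no filter, thinned sums, no smoothing, a stricter margin of 0.2, abundant genes left out, no block of section, a replicate block, and each section left out in turn. The members and lists were chosen with earlier results of these data known. Single values of some genes of the wider list are not reported here. The fits were tested on simulated data (R 4.3.3, Python 3.11.15), where the fit averaged over regions made false calls well above its threshold.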

Additional observations from a re-analysis of the deposited data

How the results depend on the processing

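Counts of calls, the values named by rule and 6 of the subunit shares were recomputed, 1 choice at a time, under the alternatives that apply to each (DESeq2 was not run for the fit averaged over regions). The cause of a change was not tested. Of the 58 region calls named, 28 stayed past the threshold throughout. Calls were lost for 22 without smoothing of the region scores (5 of them in fits with an SE over 20, which give no usable estimate), 13 with sums thinned to the smallest total, 8 without the block of section, 6 with the stricter margin, 3 with DESeq2, 2 without a filter on low counts, 1 with neuronal regions alone (an alternative chosen after seeing the data) and 6 to 14 with 1 section left out. The 142 region calls became 76 with thinned sums and 107 to 142 with 1 section left out, and stayed within 1.5 times of 142 otherwise, but without smoothing they split into 91 higher and 19 lower, against 83 and 59. The 3 calls averaged over regions became 0 with thinned sums, 0 without smoothing, 0 with the stricter margin, 2 without a filter (Cnih2 was lost) and 0 to 5 with 1 section left out. All genes called in that fit numbered 406, and between 83 without smoothing and 4151 without a filter. With 1 section left out, calls ranged from 0 to 2 in single regions and 0 to 9 in whole sections, both highest without trained 1. Over all alternatives, the calls among all genes went from 32 to between 10 and 711 in single regions, from 0 to between 0 and 114 in the pooled hippocampal layers, from 2 to between 1 and 848 in whole sections, from 10 to between 3 and 158 in the interaction, and from 18728 to between 8884 and 20947 in the region comparison. The section left alone in its group was assumed to vary like the others. No receptor gene was called in the pooled hippocampal layers or in the interaction under any alternative. The Gria1 share in CA1 was 38.6% without smoothing, against 42.9%. Without smoothing the sign turned for Cnih3 in CA3 (0.40), Cnih2 in layer 6 cortex (0.037), Cacng3 in the meninges (-7.12 ± 3.47, from 0, 5, 0 and 8 spots, so its sign is not read), and the training changes of Cacng2 in CA1 (0.35), Gria1 in the medial habenula (0.10) and Gria2 in the striatal spots against other regions (-0.34). With 1 section left out, the training change of Gria1 in the medial habenula ranged from -0.85 to 0.56 and turned without untrained 2. That of Grin2c there against other regions ranged from -2.30 to 4.63, but the 4.63 (without untrained 2, SE 11009) is no estimate, since the remaining untrained section held 0 Grin2c UMIs. Without it the range was -2.30 to -1.11. Too few meningeal spots were left without smoothing to test training there.

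Replicate numbers were treated as names in the main fits. The deviations of same-numbered sections from their group means correlated at 0.0190 over 13810 genes. With 2 sections a group this is a single value, which cannot show whether the numbers mark pairs. With a replicate block, 0 receptor genes were called in single regions, 0 in the pooled hippocampal layers, 0 in whole sections and 3 averaged over regions. Over all genes, in the same order, the calls were 196 with the block against 32 without, 7 against 0, 47 against 2 and 792 against 406.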
